A study of Mus musculus with 6 samples.

Results

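The transcripts described here encode the subunits of the 3 nuclear RNA polymerases of mouse satellite cells, which are the stem cells that skeletal muscle keeps for repair. Members were all symbols listed in both deposited expression tables that begin with Polr1, Polr2 or Polr3 and continue with a letter, which gave 28 of the 24067 symbols common to the tables. Polyadenylated RNA was measured in 4 libraries: freshly isolated satellite cells (FISC), wild type (WT) and labelled iKO for Yy1, and activated satellite cells (ASC) cultured for 36 h, WT and Yy1 iKO. A list of binding peaks of YY1, a zinc finger transcription factor, came from 1 immunoprecipitation library of ASC labelled C57 and 1 input library. The sources used here do not give the Yy1 alleles, the driver and timing of the deletion, or the age and number of animals. Each group held 1 library, so differences below were not checked against replicates, and counts of genes past 2-fold rest on size alone, with no test.

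RNA polymerase I makes the large ribosomal RNA precursor, RNA polymerase II makes messenger RNA, and RNA polymerase III makes transfer RNA, 5S ribosomal RNA and other short RNAs. Each enzyme has 2 large subunits that together form the active site, surrounded by smaller subunits that assemble, extend or regulate it. Polr2e, Polr2f, Polr2h, Polr2k and Polr2l are built into all 3 enzymes, and Polr1c with Polr1d into polymerases I and III. Demand for these enzymes is high in cells that leave quiescence and grow, since ribosome production draws on all of them.

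Levels are in FPKM (fragments per kilobase of transcript, relative to library size), in the order FISC WT, FISC iKO, ASC WT and ASC iKO. Of 10 satellite cell markers, all above 0 in every library, 10, 10, 10 and 9 reached 1 FPKM. Their sums were 2908, 2713, 1318 and 1084, of which Sdc4 alone held 1401, 1190, 180 and 237. Cd34 went the other way between the states, at 34.0, 39.7, 103 and 45.1. Pax7 stood at 61.8, 78.3, 28.3 and 6.19, and Myod1 at 411, 558, 698 and 598. Low in ASC were Chrdl2, at 93.5, 83.4, 2.12 and 0.732, and Heyl, at 69.4, 64.5, 1.07 and 1.37. Yy1 itself was at 51.0 (WT) and 20.1 FPKM (iKO) in FISC, and at 55.2 and 2.03 in ASC. Summed fibroblast markers were 279 FPKM in FISC WT, 291 in FISC iKO, 37.3 in ASC WT and 18.3 in ASC iKO. Immune markers summed to 7.01, 6.69, 4.22 and 14.9 FPKM in FISC WT, FISC iKO, ASC WT and ASC iKO. In ASC the monocyte and macrophage markers Cd14 (2.80 and 9.75 FPKM) and Cd68 (1.36 and 5.16) were higher in iKO, while Ptprc and Adgre1 were listed at 0 in both libraries. Csf1r, another macrophage marker, was at 0.053 FPKM in ASC WT and 0 in ASC iKO. The part of these other cells in the ratios was not tested. FPKM sums ran from 505469 to 545755 in 3 libraries but reached 1245942 in ASC iKO, where the single microRNA gene Mir762 was listed at 496241. Without small RNA genes the ASC iKO sum was 746911 against 502503 in ASC WT, so ratios in ASC are also given after scaling to one sum.

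All 28 subunit transcripts were above 1 FPKM in all 4 libraries, at levels that differed widely between subunits of one enzyme. In FISC WT they ran from 1.27 FPKM for Polr3k to 140 for Polr1d, with a median of 12.7. In ASC WT they ran from 4.12 for Polr3gl to 189 for Polr1d, with a median of 47.2. Polr1d was the highest subunit in every library. Polymerase III had the lowest levels, with a median over its 10 own subunits of 5.74 FPKM in FISC WT and 15.8 in ASC WT. Medians over the 7 own subunits of polymerase II were 20.8 and 67.9 FPKM in the same libraries, and those over the 5 common subunits 29.5 and 82.3. The 2 active-site subunits of polymerase III were lower than those of polymerase II in each library: Polr3a stood at 3.16, 3.44, 13.6 and 8.30 FPKM in FISC WT, FISC iKO, ASC WT and ASC iKO, and Polr2a at 29.3, 34.1, 67.9 and 42.1.

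**Figure D1:**
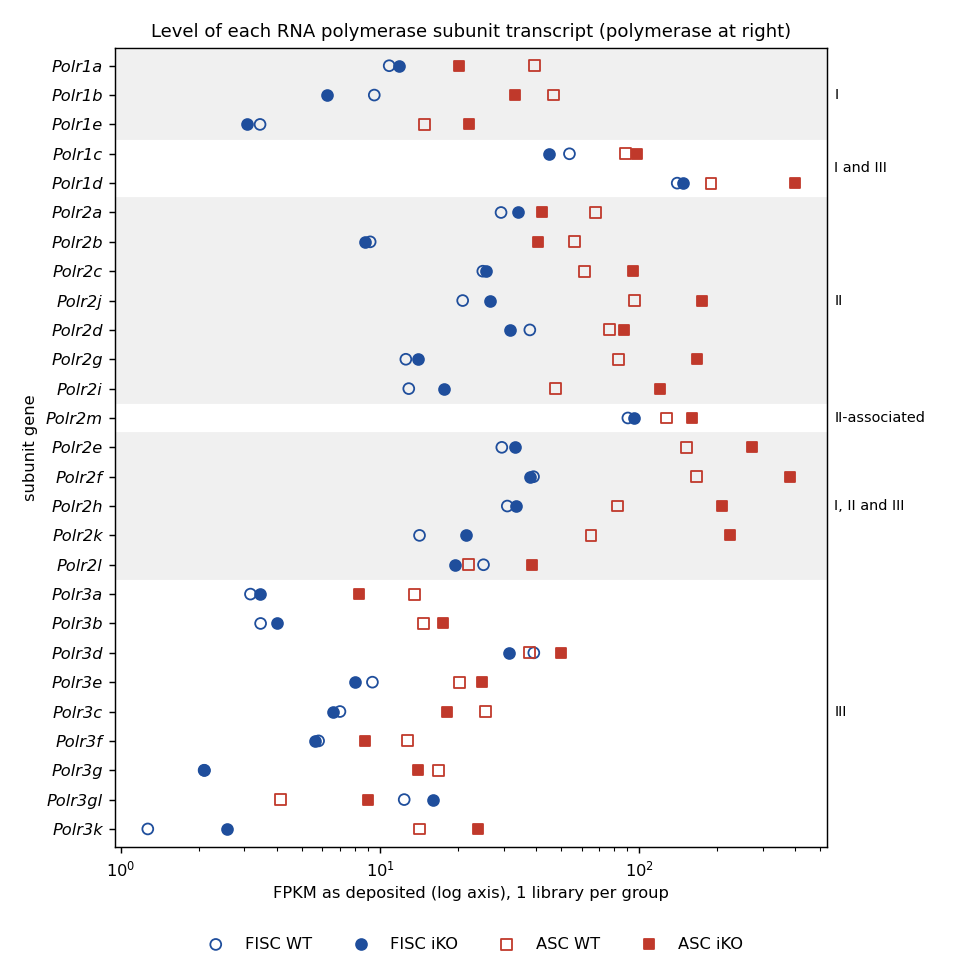
FPKM of 27 subunit transcripts on a log axis, 1 point per library (circles FISC, squares ASC, open WT, filled iKO), grouped by polymerase. Most squares lie to the right of the circles, Polr3gl is the reverse, and Polr1d is the rightmost subunit in all 4 libraries.

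In freshly isolated cells no subunit transcript differed by 2-fold between the iKO and WT libraries with 1 FPKM added to each value. Over the 11229 genes that reached 1 FPKM in either library, 0.677% were past 2-fold upward and 0.721% downward, so a count of 0 of 28 does not stand apart from the background. Ratios are log2 of iKO over WT with 1 FPKM added to each. They ran from −0.53 for Polr1b to 0.65 for Polr3k, with a median of 0.08 beside −0.0027 over all genes. Above 0 were 16 of 28, beside 49.6% of all genes. Polr3k, a zinc ribbon subunit of polymerase III that acts in transcript cleavage and termination, stood at 1.27 and 2.57 FPKM in WT and iKO, and its ratio was 0.96 when 0.1 FPKM was added in place of 1. Polr2k, a small zinc-binding subunit common to all 3 enzymes, stood at 14.2 and 21.4. On the other side were Polr1b, the second largest subunit of polymerase I, at 9.51 and 6.27 FPKM and Polr2l, another common subunit, at 25.1 and 19.4. In bulk libraries, fewer cells of a type and less RNA per cell cannot be told apart, here or below.

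In activated cells the subunits of the same enzymes parted by size. As deposited, the active-site subunits were lower in the iKO library for 5 of 6 genes, while 14 of 15 small subunits were higher. Of all genes, 49.8% were higher. After scaling to one sum, 6 of 6 active-site subunits were lower and 13 of 15 small ones higher, where 24.7% of all genes were higher. These size classes were set after the values were known, and ratios of all genes also moved with locus length, as given below. With FPKM as deposited, 6 of 28 members were at least 2-fold higher and none lower, where 8.74% of 11215 genes were higher and 8.26% lower. The median ratio was 0.47 beside −0.0025 over all genes. After scaling to one sum, 1 of 28 members was at least 2-fold higher and 7 were lower, beside 1.69% and 23.4% of all genes, and the median turned to −0.08 beside −0.50. Scaling to one sum lowered the log2 ratio of each member by between 0.49 and 0.57, so the sign of a subunit whose ratio is above 0 but below that shift depends on the scaling.

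Among active-site subunits, Polr1a, the largest subunit of polymerase I, stood at 39.5 FPKM in the ASC WT library and 20.1 in ASC iKO, a ratio of −0.94. The same gene was at 10.9 and 11.8 in FISC, so the ASC iKO library lay between the FISC libraries and ASC WT. Polr2a, which carries the catalytic centre and the repeated tail of polymerase II, was at 67.9 and 42.1 FPKM in ASC (−0.68). Polr3a, the largest subunit of polymerase III, was at 13.6 and 8.30 (−0.65). The second largest subunits were closer to WT, with Polr1b at 46.8 and 33.1 FPKM (−0.48) and Polr2b at 56.1 and 40.8 (−0.45). Polr3b was the exception and stood slightly above WT at 14.7 and 17.6 (0.24), a sign that scaling to one sum turned to −0.30. Over the 6 genes the median was −0.57 as deposited and −1.11 after scaling to one sum, when 5 of 6 were at least 2-fold lower.

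The 5 subunits common to all polymerases were all higher in the ASC iKO library under both scalings. Polr2k was the extreme, at 65.1 (WT) and 223.9 FPKM (iKO), a ratio of 1.77 or 3.40-fold, and it was the only member still past 2-fold after scaling to one sum (1.20). Polr2h stood at 82.3 and 208.9 FPKM (1.33) and Polr2f at 167 and 381 (1.19). Polr2e, at 152 and 273 FPKM (0.84), and Polr2l, at 22.0 and 38.6 (0.79), stayed within 2-fold. With the median over all genes of like locus length taken off, the ratios were 1.09 for Polr2k, 0.94 for Polr2f and 0.66 for Polr2h. Those of Polr2e and Polr2l were 0.17 and 0.11. Levels of subunits within one library need no scaling between libraries: Polr2k was at 0.960 times the FPKM of Polr2a in ASC WT and 5.32 times in ASC iKO, against 0.485 and 0.627 times in FISC WT and iKO. This pair still carries the trend with locus length given below. Genes of like locus length had a median ASC ratio of 0.67 for Polr2k and −0.0063 for Polr2a.

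The small subunits of polymerase II alone were also all above 0 in ASC under the deposited scaling. Polr2i, a zinc ribbon subunit related to the elongation factor TFIIS, stood at 47.6 and 120.5 FPKM in ASC (1.32). Its listed locus also holds Ovol3. Polr2g, which forms the stalk of the enzyme with Polr2d, stood at 82.9 and 167.0 (1.00), just past 2-fold, and Polr2d itself at 76.8 and 87.5 (0.19). The assembly pair Polr2c and Polr2j stood at 61.6 and 94.3 FPKM (0.61) and at 95.8 and 174.7 (0.86). The related pair of polymerases I and III split, with Polr1d at 189 and 399 (1.07) and its larger partner Polr1c at 88.6 and 98.4 (0.15). Polr2m, a protein that binds polymerase II and is not a core subunit, stood at 128 and 160 (0.32).

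With 1 FPKM added, polymerase III had no member past 2-fold in activated cells as deposited. After scaling to one sum, 3 of its 10 members were at least 2-fold lower, beside 23.4% of all genes. As deposited, the polymerase III members went both ways around a median of 0.26, which scaling to one sum turned to −0.28. Below 0 beside Polr3a were 3 of the 4 genes of the trimer that opens the promoter: Polr3c at 25.6 and 18.1 FPKM (−0.48), Polr3f at 12.7 and 8.76 (−0.49) and Polr3g at 16.9 and 14.0 (−0.25). The other trimer gene, Polr3gl, stood the other way at 4.12 and 8.95 (0.96). With 1 FPKM added it was just short of 2-fold, and with 0.1 FPKM added its ratio was 1.10, past 2-fold. Also above 0 were the zinc ribbon subunit Polr3k at 14.2 and 23.8 (0.71) and the pair related to the initiation factor TFIIF, Polr3d at 37.7 and 50.1 (0.40) and Polr3e at 20.2 and 24.8 (0.28). The polymerase I counterpart of that pair, Polr1e, was at 14.9 and 22.1 FPKM (0.54, and 0.00 after scaling to one sum), from a locus listed also for Fbxo10.

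**Figure D2:**
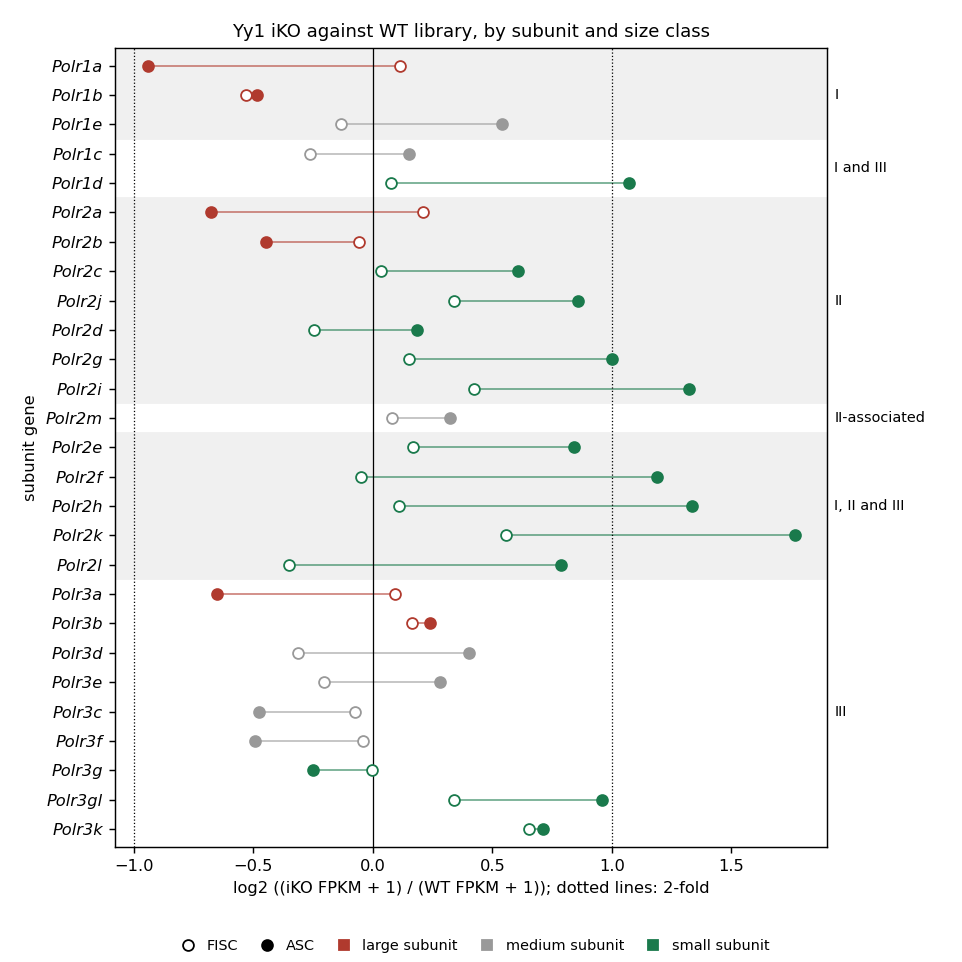
Log2 ratio of iKO over WT for 27 subunit transcripts in FISC (open points) and ASC (filled points), with FPKM as deposited and 1 added, coloured by size class. In ASC 5 of the 6 large subunits lie left of 0 and 13 of the 14 small ones drawn right of 0, and in FISC all of them lie within 2-fold. Of all genes in ASC, 49.8% were above 0. Scaling ASC to one sum moves its points left by up to 0.57, which turns those of Polr1c, Polr2d, Polr2m, Polr3b, Polr3d and Polr3e to below 0.

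Size was compared as a description, since the members were chosen with earlier results known. By listed locus length, the 14 members under the median of 14.8 kb had a median ASC ratio of 0.81 and the 14 above it −0.01, a difference of 0.82. In FISC the same difference was 0.04. By the size of the proteins, a classing from general knowledge set after the values were known, 15 small subunits had a median of 0.88 in ASC, 7 medium ones 0.28 and 6 large ones −0.57. The difference between small and large was thus 1.45 in ASC and 0.05 in FISC. Ratios of all genes in ASC also moved with locus length: the median over all genes was 0.67 in the shortest and −0.48 in the longest of 10 length classes of equal gene number. After the median of its own length class was taken from each ratio, the difference between members with shorter and longer loci was 0.12. The difference between small and large proteins was 1.09, with medians of 0.61 and −0.48.

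Single members show why these classings differ. Polr1d encodes a small protein but has a listed locus of 34.02 kb, and its ratio lay 1.24 above the median of its length class. Polr3d and Polr1c have loci of 4.72 and 4.13 kb and encode medium-sized proteins; their ratios lay 0.01 above and 0.52 below it (−0.52). Polr3f and Polr3c, at 14.0 and 15.5 kb, lay at −0.61 and −0.59 from it. Polr2k, at 3.0 kb, was 1.09 above. Not all members followed protein size. The large Polr3b, at 104.7 kb, lay 0.66 above it. The medium-sized Polr1e, at 66.0 kb in a locus listed also for Fbxo10, lay 0.86 above it. The small Polr2d and Polr3g lay at −0.20 and −0.08 from it. Polr2b lay at −0.03 from it, but its listed locus of 97.6 kb also holds Igfbp7. The sources used here do not give the lengths of transcripts or of sequenced fragments, and their part in these ratios was not tested.

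**Figure D3:**
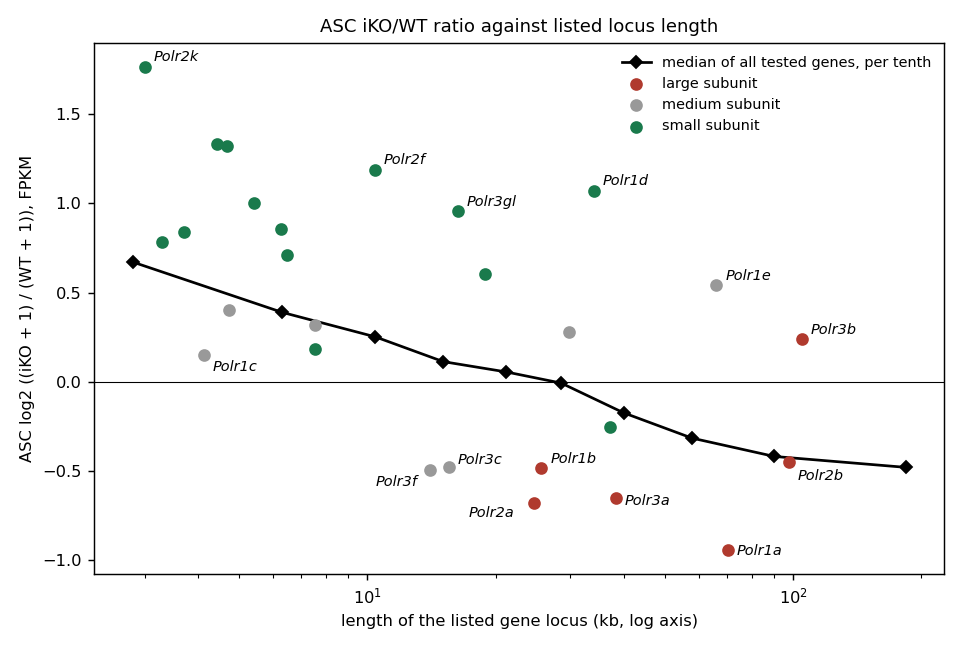
Log2 ratio of iKO over WT in ASC against the length of the listed gene locus (log axis), for 27 subunits (coloured by size class) and for the median of all tested genes in each of 10 classes of locus length (black line). The line falls from 0.67 to −0.48. Polr1d lies above it at a long locus, and Polr1a, Polr2a and Polr3a below it. Polr3b, a large subunit, and Polr1e, a medium one, also lie above it at long loci, and the small Polr2d and Polr3g lie below it.

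For activation, ASC WT was compared with FISC WT and ASC iKO with FISC iKO, all scaled to one sum of FPKM without small RNA genes. Each such comparison spans both deposited tables, and separate normalization of the tables cannot be told apart from activation. Of the 28 subunit transcripts, 22 were at least 2-fold higher in ASC WT than in FISC WT and 1, Polr3gl, was 2-fold lower, where 34.0% of 11816 genes were higher and 15.9% lower. The median ratio was 1.85 beside 0.50 over all genes. In the iKO libraries 16 were at least 2-fold higher and again only Polr3gl was lower, with a median of 1.40 beside −0.05, where 23.4% of 11797 genes were higher and 27.8% lower. Above 0 were 26 of the 28 in WT, beside 64.5% of all genes, and 26 in iKO, beside 48.8%. In both genotypes 25 were above 0, and the share of all genes above 0 in both was not counted.

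Subunits of each polymerase were higher in ASC WT than in FISC WT. Highest was Polr3k, with a ratio of 2.82, followed by Polr2g (2.73), Polr3g (2.62) and Polr2b (2.59). The 3 members that belong to polymerase I alone lay close together, Polr1b at 2.29, Polr1e at 1.93 and Polr1a at 1.88. Least different were the assembly pair Polr1c (0.82) and Polr1d (0.54), Polr2m (0.60), Polr3d (0.05) and Polr2l (−0.08). These 5 include the 4 highest members of FISC WT, Polr1d at 140, Polr2m at 90.4, Polr1c at 53.8 and Polr3d at 39.2 FPKM.

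The largest subunit of each polymerase had the activation ratios that differed most between the genotypes. The median of the 6 active-site subunits was 1.91 in WT and 1.05 in iKO, while that of the small subunits was 1.91 and 2.11. Polr2a had a ratio of 1.29 in WT and −0.19 in iKO, Polr1a 1.88 and 0.25, and Polr3a 1.90 and 0.65. Over all genes the median was also lower in iKO, at 0.50 in WT and −0.05 in iKO. Among genes of like locus length it was 0.66 and 0.25 for Polr2a, 0.43 and −0.40 for Polr1a, and 0.53 and −0.14 for Polr3a. Polr2b stood at 2.59 and 1.63, Polr1b at 2.29 and 1.77 and Polr3b at 1.91 and 1.45. Common subunits went the other way, with Polr2f at 2.17 and 2.81, Polr2k at 2.23 and 2.84 and Polr2h at 1.49 and 2.11. These values share the ASC libraries with the ratios above and add no independent evidence. FPKM as deposited put the iKO median of all members at 1.87 and Polr3gl within 2-fold.

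Polr3g and Polr3gl, alternative forms of the same trimer subunit of polymerase III, exchanged places between the states. Polr3g stood at 2.097 FPKM in FISC WT, 2.09 in FISC iKO, 16.9 in ASC WT and 14.0 in ASC iKO. Polr3gl stood at 12.4, 16.0, 4.12 and 8.95 in the same order. Both ASC libraries were thus above both FISC libraries for Polr3g and below both for Polr3gl. Within a library, which needs no scaling, Polr3gl was at 5.91 times the FPKM of Polr3g in FISC WT and 7.64 times in FISC iKO. In ASC, Polr3g was at 4.09 times the FPKM of Polr3gl in WT and 1.56 times in iKO. The activation ratios were 2.62 and 1.87 for Polr3g and −1.29 and −1.23 for Polr3gl in WT and iKO. Summed, both forms came to 14.5, 18.0, 21.0 and 23.0 FPKM in FISC WT, FISC iKO, ASC WT and ASC iKO.

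**Figure D4:**
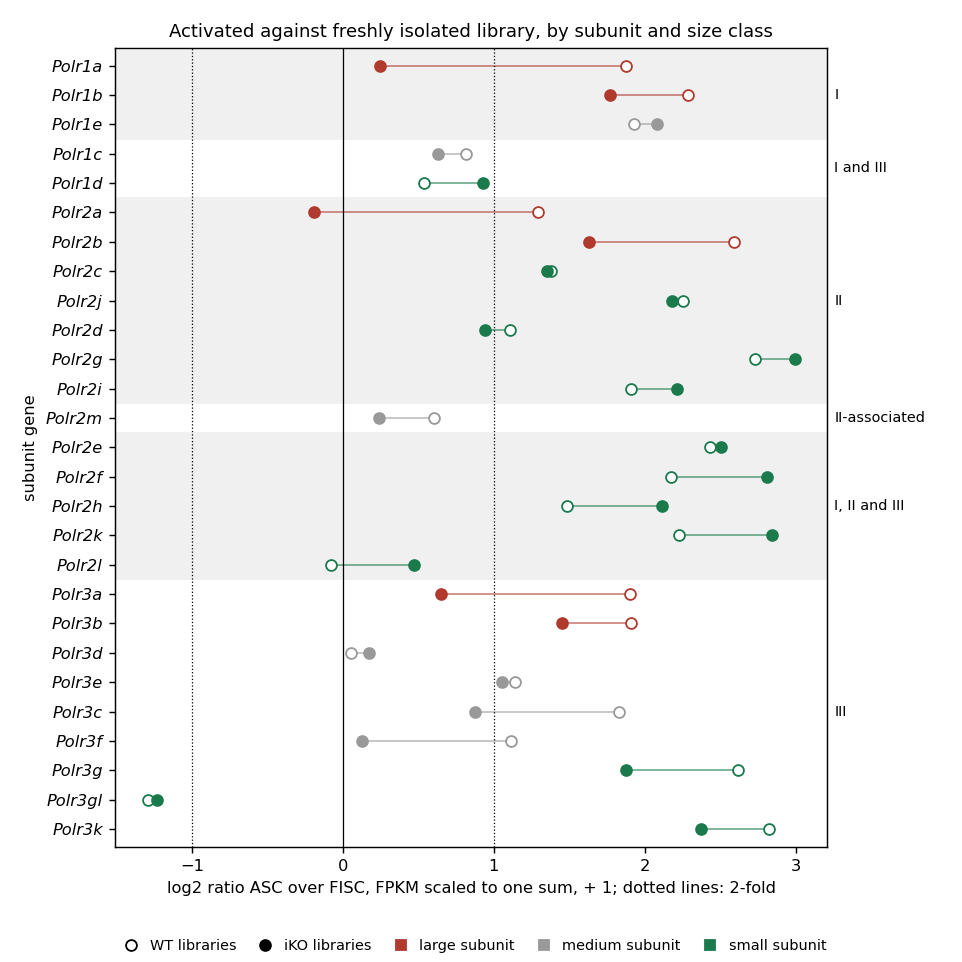
Log2 ratio of ASC over FISC for 27 subunit transcripts in the WT (open points) and iKO (filled points) libraries, scaled to one sum of FPKM without small RNA genes and with 1 added, coloured by size class. Polr3gl is the single member beyond 2-fold on the lower side in both genotypes, and the filled points of the 6 large subunits all lie left of the open ones.

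Further polymerase subunits are listed under symbols outside the naming pattern. Znrd1, a zinc ribbon subunit of polymerase I, stood at 44.7, 42.1, 43.3 and 99.4 FPKM in FISC WT, FISC iKO, ASC WT and ASC iKO, high in ASC iKO alone (ASC iKO over WT 1.18). Cd3eap, the partner of Polr1e, stood at 12.8, 12.5, 37.4 and 71.4, from a locus listed also for Ercc1. The stalk subunits Twistnb, of polymerase I, and Crcp, of polymerase III, differed less between genotypes in ASC, at 22.6 and 21.5 and at 33.3 and 37.0 FPKM. Polrmt, the separate polymerase of mitochondria, was at 17.1 and 13.1 in ASC.

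Factors that work with the polymerases were taken from a list of 69 symbols that also holds the 5 genes just given, 64 of which were in both tables. In ASC 6 of the 64 were at least 2-fold higher in iKO and 4 lower, shares near the 8.74% and 8.26% of all genes, and the median was 0.20. After scaling to one sum 2 were higher and 10 lower, beside 1.69% and 23.4% of all genes, with a median of −0.35 beside −0.50. Supt4a, the small partner of the elongation factor Supt5, was at 76.7 (WT) and 229 FPKM (iKO), a ratio of 1.57, and Gtf3c6, a small subunit of the polymerase III factor TFIIIC, at 40.2 and 124 (1.60). Gtf3c3, another TFIIIC subunit, was lower at 13.6 and 3.61 (−1.66). Ccnt1, a cyclin of the kinase that releases paused polymerase II, was lowest at 16.2 and 1.29 (−2.91), with 9330020H09Rik at the same listed locus. In FISC none of the 64 passed 2-fold. There the highest ratios were those of Gtf3a, which binds the 5S ribosomal RNA gene (7.66 and 13.1 FPKM; its listed locus also holds Mtif3), and of Gpn3, a GTPase of polymerase assembly (11.6 and 17.4). Of the factors that reached 5 FPKM in either FISC library, Snapc1 and Gpn1 had the lowest ratios. Snapc1, of the complex that starts small nuclear RNA genes, was at 20.7 and 13.4 FPKM, and Gpn1 at 13.6 and 10.3. On activation in WT, 42 of the 64 were at least 2-fold higher and none lower, beside 34.0% and 15.9% of all genes, with a median of 1.27 beside 0.50. In iKO 30 were higher and 4 lower, beside 23.4% and 27.8%, with a median of 0.91 beside −0.05.

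YY1 peaks lay at 5 of the 28 subunit genes, with a summit inside the listed locus or within 2 kb of it, when 9.85% of the 11215 genes tested in ASC had one. Fold and significance were taken as the authors deposited them with their 2031 peaks. The strongest was at Polr1c (mm9, chromosome 17, 46384839 to 46384981), with a summit 84 bases inside the end of the listed locus, a fold of 7.17 and a −log10 q of 5.30. RefSeq places Polr1c on the minus strand, so that end is the one where the gene starts. Polr1c was also the only member left at a −log10 q of at least 5, a level that 1.95% of genes reached. Weaker peaks, with a −log10 q of 0.329 or less, lay at Polr3g (inside, 13406 bases from the nearer end), Polr3d (55 bases inside the end) and Polr1a (283 bases outside the start). Those at Polr3d and Polr1a had the lowest −log10 q of the list and ranked 1706 and 1673 of the 2031 peaks by p. Polr1c, Polr3g, Polr3d and Polr1a had ASC ratios of 0.15, −0.25, 0.40 and −0.94, both above and below 0.

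Promoters from RefSeq (build GRCm38.p6, 250 bases before to 50 after the annotated start) were found for 22 of the 28 members. They were searched on both strands for ATGGCG, the core of the YY1 motif, whose reverse is CGCCAT, and for the longer form AAGATGGC. The core was in the promoters of 3 of 22 members, Polr1b, Polr1c and Polr2l, and in 8.93% of all 32851 promoters of this length. The longer form was in no member's promoter and in 2.75% of all. Given here, 5′ to 3′ on the strand of the gene with the core in capitals, are the 250 bases before the start of Polr1c, which has the strong peak, of Polr1a, which has the lowest ASC ratio and a weak peak, and of Polr1b, which has the core and no peak. For Polr2l a stretch of 30 bases is given around the core, whose first base is base 28 of the transcript.
Polr1c (chr17:46248046-46248295, minus strand): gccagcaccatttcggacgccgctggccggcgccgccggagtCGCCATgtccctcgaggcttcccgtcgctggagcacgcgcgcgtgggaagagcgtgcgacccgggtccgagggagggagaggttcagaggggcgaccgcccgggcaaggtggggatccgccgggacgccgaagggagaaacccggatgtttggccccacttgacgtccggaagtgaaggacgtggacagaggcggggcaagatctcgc
Polr1a (chr6:71908803-71909052, plus strand): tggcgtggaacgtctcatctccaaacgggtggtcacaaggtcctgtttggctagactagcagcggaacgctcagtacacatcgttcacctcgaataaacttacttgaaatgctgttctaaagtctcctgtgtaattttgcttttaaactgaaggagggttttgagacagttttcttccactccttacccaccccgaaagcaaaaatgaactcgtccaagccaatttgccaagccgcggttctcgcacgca
Polr1b (chr2:129100746-129100995, plus strand): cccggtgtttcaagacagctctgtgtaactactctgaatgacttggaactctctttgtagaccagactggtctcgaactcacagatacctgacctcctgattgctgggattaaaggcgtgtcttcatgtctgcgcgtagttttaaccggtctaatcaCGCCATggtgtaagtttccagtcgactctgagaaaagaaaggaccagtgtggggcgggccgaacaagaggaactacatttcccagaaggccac
Polr2l (chr7:141475109-141475138, minus strand): cacgccagacgcCGCCATgatcatcccggt

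In Polr1c the core began 208 bases before the start and in Polr1b 93 bases before it. The Polr1c window was richer in G and C, at 70.4%, than those of Polr1b (49.6%) and Polr1a (47.6%). Of the genes that hold the core, Polr1c had a peak, while Polr1b and Polr2l had none within 5 kb of their loci. Their ASC ratios were 0.15, −0.48 and 0.79. On mm9 the Polr1c peak ended at 46384981, inside the listed locus that ends at 46384994, while the core began before the RefSeq start. Whether the core lies under the peak was not tested. The sequence under the peaks was not used here, because the peaks are placed on mm9 and the promoters on GRCm38.p6. A match of letters describes the window only.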

How the data were processed

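The authors deposited FPKM values, per the file headers, in 1 table for the FISC pair (24205 genes) and 1 for the ASC pair (24312). TopHat2, Cufflinks 2.2.1, MACS2 2.1.0 and mm9 are named in the submitters' processing notes without roles; the sources used here do not give the annotation, strand setting or filters. The deposited peak list holds a score, a fold over background and −log10 p and −log10 q per peak, called from 1 library with 1 input.

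Columns were matched to libraries by state and genotype names. Total depth is unknown; steps of low FPKM values put the ASC WT library at 1.50 reads per iKO read (14.1% of 1573 low genes, within 0.75%) and the FISC pair at 1.00. Log2 ratios used a pseudocount of 1 FPKM, which understates low genes, and genes with at least 1 FPKM in 1 library; 2-fold is a rule of size. All 28 members passed this filter in every comparison and enter the counts and medians; 1 is not reported singly here. Named genes were every member, subunits under other symbols, Yy1 as the check of the labels, markers of the cell label, and the 2 highest and 2 lowest of the factor list per genotype comparison at 5 FPKM or more; Polrmt and neighbours at a listed locus were named beside them after their values were seen. The members and lists were chosen with earlier results of these data known. Size by protein length was planned, but no protein table was used; listed locus length took its place. The ratio calculation was tested on simulated data. Python 3.11.15, pandas 2.3.3 and NumPy 2.4.6 were used.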

Additional observations from a re-analysis of the deposited data

Results flagged for a closer look

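Several subunits had ratios of opposite sign in the 2 states or genotypes. With 1 library per group the difference was not tested, and ratios near 0 change sign easily. For iKO over WT this held for 10 of 28 members. The share of all genes with opposite signs was not counted, here or for ASC over FISC, so this count has no background beside it. Lower in ASC but not in FISC were Polr1a (0.11 in FISC, −0.94 in ASC), Polr2a (0.21, −0.68) and Polr3a (0.09, −0.65), the largest subunit of each polymerase. The reverse held for Polr1e (−0.13, 0.54), Polr1c (−0.26, 0.15), Polr2d (−0.25, 0.19), Polr2f (−0.05, 1.19), Polr2l (−0.35, 0.79), Polr3d (−0.31, 0.40) and Polr3e (−0.20, 0.28). These ratios are as deposited, and some of the signs depend on the scaling. After scaling to one sum, Polr1c (−0.22, −0.42), Polr2d (−0.21, −0.38), Polr3d (−0.28, −0.16) and Polr3e (−0.17, −0.27) were below 0 in both states. Polr1e was then at −0.10 in FISC and 0.0001 in ASC.

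Among genes outside the naming pattern, Cd3eap (−0.03, 0.92), Znrd1 (−0.09, 1.18), Crcp (−0.16, 0.15), Snapc1 (−0.59, 0.38) and Supt4a (−0.02, 1.57) were below 0 in FISC and above it in ASC. Ccnt1 (0.08, −2.91) and Gtf3c3 (0.19, −1.66) were the reverse. After scaling to one sum, Crcp (−0.13, −0.41) and Snapc1 (−0.55, −0.16) were below 0 in both states. Cd3eap (0.0047, 0.36) and Supt4a (0.02, 1.00) were then above 0 in both. Medians of opposite sign were those of large subunits (0.10, −0.57), medium subunits (−0.13, 0.28), Polr1c with Polr1d (−0.09, 0.61) and the members with longer listed loci (0.06, −0.0055). Scaling to one sum put the median of the medium subunits below 0 in both states (−0.10, −0.27).

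For ASC over FISC, opposite signs in the WT and iKO libraries were found for Polr2a (1.29 in WT, −0.19 in iKO), Polr2l (−0.08, 0.47), Twistnb (0.19, −0.28), Snapc1 (−0.16, 0.24) and Gtf3c3 (2.18, −0.14). These ratios are scaled to one sum. As deposited, the iKO ratios of Polr2a and Twistnb were above 0, at 0.29 and 0.19. Gtf3c3 was deposited at 2.91 FPKM in FISC iKO and 3.61 in ASC iKO. The difference of medians between members with shorter and longer loci was −0.15 in WT and 0.94 in iKO.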

How the results depend on the processing

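No paired analysis was possible because each group held 1 library. A median was counted as moved at a change over 0.1, and a count at a change over 1.5 times. The FISC counts and medians kept their values under the alternatives tried, and among single members the ratio of Polr3k moved from 0.65 to 0.96 with a pseudocount of 0.1. In ASC, scaling to one sum gave 1 member at least 2-fold higher, 7 lower and a median of −0.079, in place of 6, 0 and 0.47. A pseudocount of 0.1 gave 7 higher, and the ratio of Polr3gl moved from 0.96 to 1.10. Taking off the median of each gene's locus length class gave 3 higher and a median of 0.23, and leaving out the 5 members that share a listed locus, chosen after seeing the data, a median of 0.32. The ASC difference between shorter and longer loci (0.82) was 0.12 with that median taken off and 1.45 between small and large proteins. The WT activation median (1.85) was 1.96 with a pseudocount of 0.1, 1.75 as deposited and 1.41 with one upper quartile. That of iKO (1.40) was 1.87 as deposited, with 0 members lower, and 0.72 with one sum over every gene. The locus difference on activation in WT (−0.15) was −0.37 among subunits of a single polymerase and 0.0043 between small and large proteins. In iKO (0.94) it was 0.21 and 1.06, and 0.63 with the median of the length class taken off. At a −log10 q of 5 or more, 1 of the 5 members with a peak was left. Splits of size by residues were not run.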
